A study of Mus musculus with 8 samples.

Results

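The aquaporins are a family of small membrane proteins that form pores for water, and some of them also pass glycerol. The 9 mouse aquaporin genes *Aqp1*, *Aqp2*, *Aqp3*, *Aqp4*, *Aqp5*, *Aqp7*, *Aqp8*, *Aqp9* and *Aqp11* were taken by symbol from 27179 genes counted by RNA-seq in whole uteri at postnatal day 10 (PD10). Of these, 7 passed the filter on low counts and were tested among 16658 genes, and *Aqp2* and *Aqp8* lay under it. The 4 control libraries (genotype *Ezh2* f/f) and the 4 *Ezh2 Amhr2*-Cre cKO libraries (*Ezh2* f/f; Acre) are separate uteri, and all of them carry the floxed *Ezh2* allele. *Ezh2* encodes the enzyme that places the repressive H3K27me3 mark. *Amhr2*-Cre is active in mesenchyme-derived cells of the reproductive tract and not in its epithelium, so a whole uterus also holds cells in which the allele is intact.

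Each aquaporin forms a tetramer in which every subunit has its own pore. *Aqp1*, *Aqp2*, *Aqp4* and *Aqp5* encode channels that pass chiefly water, and *Aqp8* encodes a water channel that also passes ammonia and hydrogen peroxide. *Aqp3*, *Aqp7* and *Aqp9* encode aquaglyceroporins, which pass glycerol as well as water, and *Aqp11* encodes an unorthodox member found on membranes inside the cell. In the uterus, aquaporins are known from the endothelium, the muscle and the epithelium, and several respond to ovarian steroids in adult animals.

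The libraries held between 25287141 and 36685807 counts, so that 3 counts, the limit that a count of 0 allows, came to 0.0824 to 0.117 CPM (counts scaled to library size). Smooth muscle markers summed to 7502 to 9533 CPM and simple epithelium markers to 1399 to 1914 CPM over the 8 libraries, so the main tissues of a uterus were present. *Ezh2* itself lay at 35.4 to 54.7 CPM in control and at 30.4 to 40.7 CPM in cKO uteri (log2 fold change -0.29, adjusted p = 0.247 in edgeR), with overlap between the genotypes. The counts cover the whole gene, and cells without Cre contribute to them. Markers of fat cells stood apart in cKO replicates 1, 2 and 3, where 10 adipocyte genes summed to 125, 264 and 127 CPM, against 18.7 CPM in cKO replicate 4 and 16.6 to 28.6 CPM in the controls. With these libraries left out, a single cKO library remains, and the fit then takes its spread from the controls. The adipocyte score, the mean log2 level of these genes, was -1.05 to -0.0992 in controls. It was 3.04, 3.99, 2.8 and -0.862 in cKO replicates 1 to 4. A fit with this score as a covariate can hardly separate score from genotype, since only cKO replicate 4 lay among the controls.

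The upstream windows of *Aqp5* and *Aqp7* are described because these genes had the largest fold changes of the family, and *Aqp2* is the neighbour of *Aqp5* on chromosome 15, 6.48 kb before it. Each window is the 250 bases before a gene start in RefSeq (GRCm38.p6). The *Aqp5* window, chr15:99590778-99591027, held 38 CpG dinucleotides at a GC content of 78.4%, more CpG than 98.1% of the 32851 windows of the same length, whose median is 6 CpG and 52.4% GC. GENCODE begins *Aqp5* farther upstream, at base 99590782, so that 246 of the 250 bases lie in its exons, and the letters are not shown. The neighbouring *Aqp2* window, chr15:99578806-99579055, held 8 CpG at 55.6% GC.

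The window of the first *Aqp7* start, chr4:41048137-41048386 on the minus strand, held 0 CpG at 50.8% GC. It contained a match to AGGTCA, the core sequence that many nuclear receptors recognise, which was sought on both strands and is read here as TGACCT. The site is shown with its flanks, chr4:41048168-41048197, 30 bases written 5′ to 3′ on the strand of the gene with the match in capitals.
Aqp7: gaactccacctcTGACCTcacaagggctgc
The annotations differ on the start of *Aqp7*. The site lies 49 bases before the RefSeq start used for the window and outside GENCODE exons, whose outermost start is at base 41048139, but inside the RefSeq span of the gene, which reaches base 41048237. The window of a second *Aqp7* start in RefSeq, chr4:41047963-41048212, held 2 CpG at 56.0% GC. It had 2 AGGTCA matches, 223 and 101 bases before that start, the first of which is the site shown. AGGTCA occurs in 14% of all such windows, so a match is common, and the site is given here as a description of the sequence. *Aqp11* had a match 230 bases before its start, and a TATAAA element, found in 12.4% of all windows on either strand, lay 29 bases before the start of *Aqp3*. Upstream windows were matched for 8 of the 9 members.

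Levels of different genes were compared as CPM per kilobase of the longest coding transcript. *Aqp1* was the most abundant aquaporin, with a mean of 98.3 ± 22.3 CPM per kb (SD, n = 4) in control uteri, above 96.4% of the tested genes with a known length. It made up 92.3% ± 2.75 (SD, n = 4) of the summed level of the 9 genes in controls and 87.3% ± 1.23 in cKO uteri. *Aqp11* and *Aqp5* followed at 3.54 ± 0.562 and 3.36 ± 1.69 CPM per kb in controls, and their control libraries overlapped, so no order between them was seen. In the cKO uteri *Aqp5* stood at 5.59 to 8.23 CPM per kb and *Aqp11* at 2.93 to 3.52 CPM per kb, and the ranges did not overlap.

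The remaining members were low in controls. *Aqp3* was at 0.297 ± 0.0851, *Aqp9* at 0.242 ± 0.0501 and *Aqp4* at 0.123 ± 0.0213 CPM per kb. *Aqp2* had a mean of 0.104, *Aqp7* of 0.0697 and *Aqp8* of 0.0337 CPM per kb, at only a few reads per library. Neighbours in this order overlapped between *Aqp3* and *Aqp9*, *Aqp4* and *Aqp2*, *Aqp2* and *Aqp7*, and *Aqp7* and *Aqp8*, whereas *Aqp9* and *Aqp4* were apart. With the length of all annotated exons in place of the longest transcript, *Aqp5* (2.33 CPM per kb) came before *Aqp11* (1.41 CPM per kb) and *Aqp2* before *Aqp4* in controls.

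**Figure D1:**
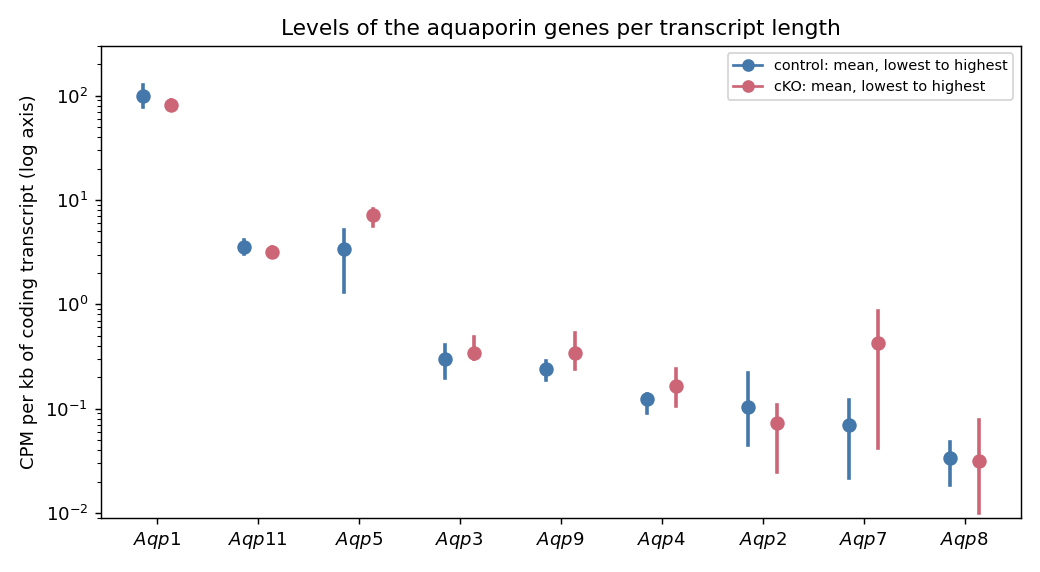
Level of each aquaporin in CPM per kilobase of the longest coding transcript (log scale), where points are means of the 4 control or 4 cKO libraries and bars run from the lowest to the highest library. *Aqp1* lies far above the other members, the bars of the genotypes are apart for *Aqp5* alone, and the lower end of the cKO bar of *Aqp8* is 0 and is cut off by the axis.

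None of the 7 tested members had an adjusted p under 0.05 in edgeR's quasi-likelihood test, where 5.34% of all genes tested did. Of all genes, 2.62% were called higher and 2.71% lower in cKO uteri, and 1.30% also had a fold change over 2. *Aqp5* and *Aqp7* had an unadjusted p under 0.05, which makes 2 of 7, as did 21.2% of all genes tested. DESeq2, which called 9.04% of all genes, called 1 member (*Aqp7*), and limma-voom, which called 4.98% of all genes, called 1 member (*Aqp5*). The share of all genes that edgeR called was 10.7% without cKO replicate 4, 5.72% without control replicate 2, 0.732% with the adipocyte score as a covariate, and 0.217% without cKO replicates 1, 2 and 3. Of the 7, 5 had a positive and 2 a negative log2 fold change, with a median of 0.41, where the median over all genes tested was 0.00044. The libraries of the genotypes did not overlap for 1 of the 7 members (*Aqp5*), or 14.3%, and for 12.3% of all genes tested.

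**Figure D2:**
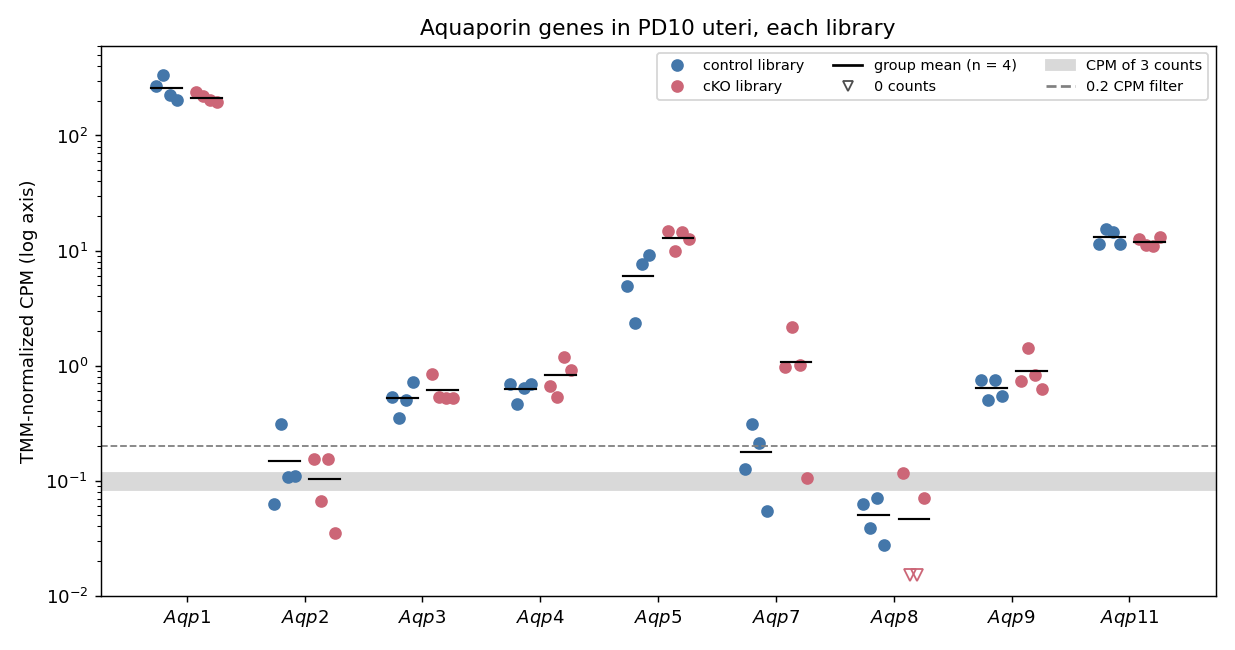
TMM-normalized CPM (log axis) of the 9 aquaporins, with 1 point per library, a line at the mean of the 4 control or 4 cKO libraries, open triangles for libraries with 0 counts, a grey band at the CPM of 3 counts and a dashed line at the filter of 0.2 CPM. All 4 cKO points lie above all 4 controls for *Aqp5* (10.0 to 14.8 against 2.36 to 9.22 CPM) and for no other member, and 1 cKO point of *Aqp7* (0.105 CPM) lies among its controls.

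**Figure D3:**
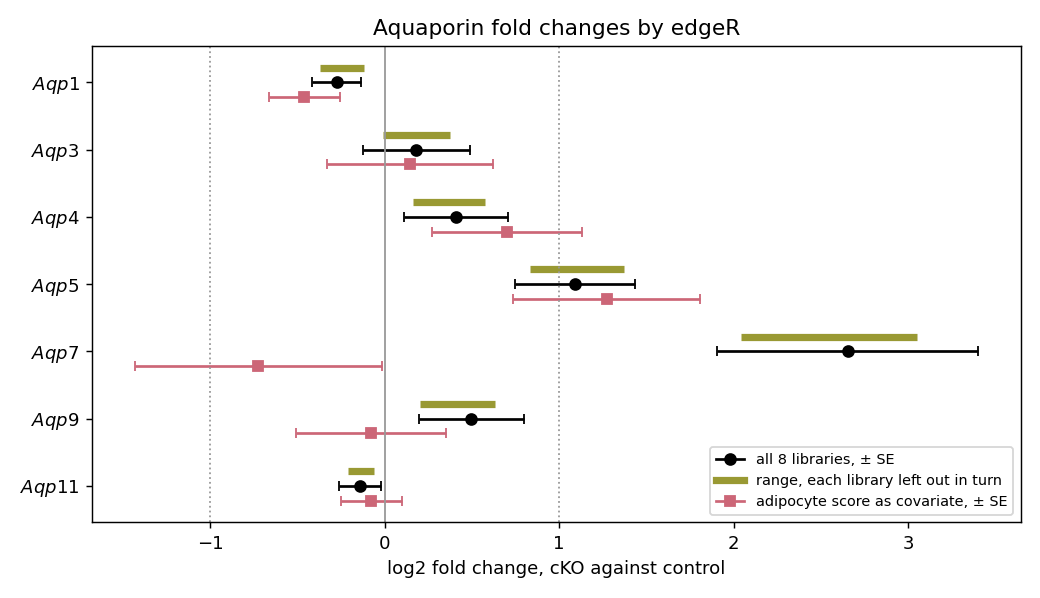
Log2 fold change of cKO against control for the 7 tested aquaporins, by edgeR: black points with all 8 libraries and red squares with the adipocyte score as a covariate (bars are 1 SE), and olive bars for the range when each library is left out in turn. With all libraries *Aqp7* (2.65) and *Aqp5* (1.09) lie farthest from 0, beyond the dotted lines that mark a 2-fold change, and with the covariate *Aqp7* lies at -0.73.

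*Aqp5* encodes the water channel of the apical membrane of secretory epithelia such as salivary, lacrimal and airway glands. The gene (Entrez 11830) spans chr15:99591028-99594829 of GRCm38 on the plus strand, and its longest coding transcript has 4 exons. Control replicates 1 to 4 had 4.92, 2.36, 7.67 and 9.22 CPM, from 61 to 336 counts. The cKO replicates 1 to 4 had 14.8, 10.0, 14.4 and 12.7 CPM, from 300 to 467 counts. Every cKO library lay above every control, and the controls were the more scattered group, with a 3.91-fold range against 1.47-fold in cKO.

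Control uteri averaged 6.04 ± 3.03 CPM of *Aqp5*, and cKO uteri averaged 13 ± 2.16 CPM (SD, n = 4 each), a ratio of 2.15. In edgeR's test over all genes this was a log2 fold change of 1.09 with a standard error (SE) of 0.34 and an adjusted p of 0.111. The exact permutation test of this single gene gave p = 0.029 (two-sided, 70 arrangements), the smallest value that 4 against 4 libraries can give. Without control replicate 2, the lowest library, the log2 fold change was 0.83 with an adjusted p of 0.0394, which passes the threshold. In RNA from a whole organ, a change in the number of cells of a type (fewer or more) and a change in the RNA per cell cannot be told apart.

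The simple epithelium markers, keratins and claudins among them, summed to 1399 to 1659 CPM in control and 1545 to 1914 CPM in cKO uteri. All 11 of these genes had a positive log2 fold change (median 0.13). In edgeR none was called and 3 had an unadjusted p under 0.05 (21.2% of all genes), DESeq2 called 1 and limma-voom 0. As a percentage of the summed CPM of these markers, a measure chosen after the values were seen, *Aqp5* stood at 0.34%, 0.169%, 0.464% and 0.556% in control and at 0.887%, 0.65%, 0.803% and 0.666% in cKO replicates 1 to 4. The genotypes did not overlap on this scale either. Of the 3 gland markers tested, *Foxa2*, a transcription factor needed for uterine glands, and *Cxcl15*, a chemokine of gland epithelium, were lower in cKO uteri (log2 fold changes -2.91 and -3.83). The other, the transcription factor gene *Sox17*, was higher (0.35, adjusted p = 0.0211), a call lost in 3 of the 8 fits that each left out a library (control replicate 1 or one of cKO replicates 2 and 3) at log2 fold changes of 0.28 to 0.35, and with the adipocyte covariate (0.38). *Foxa2* and *Cxcl15* kept their calls in those 8 fits and with the covariate, and lost them without cKO replicates 1, 2 and 3 (log2 fold changes -2.38 and -4.29, adjusted p = 0.0768 and 0.108, with 1 cKO library). Markers of stratified epithelium summed to 8.63 to 11.4 CPM in control and 9.14 to 14.4 CPM in cKO uteri with *Krt6a* at 0, and those of urothelium to 6.5 to 15.7 and 10.8 to 16.7 CPM. *Upk1b* made up most of the urothelium sum. *Upk2*, at 0.232 to 0.785 CPM in control and 0.937 to 1.44 CPM in cKO uteri, was above every control in every cKO library (log2 fold change 1.07, adjusted p = 0.108). The genotypes likewise did not overlap for 12.3% of all genes tested. All 3 urothelium markers had a positive log2 fold change (median 0.62). *Krt5*, a basal keratin, had 4.66 and 4.34 CPM in cKO replicates 1 and 4 and at most 1.18 CPM in the other libraries (adjusted p = 0.177). The part of these cell types in the level of *Aqp5* was not tested. With cKO replicates 1, 2 and 3 left out, the log2 fold change of *Aqp5* was 1.07 (SE 0.63, adjusted p = 0.88 with 1 cKO library).

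The study places *Aqp5* beside *Hoxa5*, *Upk1a* and *Krt15* as genes downstream of retinoic acid. From qRT-PCR on uteri of the same age, it reports all of these genes, *Aqp5* included, as higher in cKO mice. Those measurements lie outside the counts used here. The list was taken from that source and is therefore not independent evidence of a direction. *Hoxa5*, a homeobox transcription factor, rose from a mean of 1.6 to 4.64 CPM (log2 fold change 1.53, SE 0.21, adjusted p = 0.00121). That call was lost with the adipocyte score as a covariate (0.99, adjusted p = 0.109) and without cKO replicates 1, 2 and 3 (0.96, adjusted p = 0.364). *Upk1a*, which encodes a plaque protein of the urothelium, had 1.89, 1.62, 4.78 and 4.15 CPM in control and 7.22, 5.15, 6.84 and 7.53 CPM in cKO replicates 1 to 4 (adjusted p = 0.0706). *Krt15*, a keratin of basal epithelial cells, had 10.1, 7.04, 18.8 and 19.3 CPM in control and 31.7, 19.7, 30.6 and 33.1 CPM in cKO replicates (adjusted p = 0.126). In all 3 genes the genotypes did not overlap, as in 12.3% of all genes tested. Of the 3, DESeq2 called 2 (9.04% of all genes), limma-voom 3 (4.98%) and edgeR with the adipocyte score as a covariate 0 (0.732%).

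Among all tested genes, those with the profile closest to *Aqp5* over the 8 libraries were *Esr2*, the gene of estrogen receptor beta, *G6pc2*, a glucose-6-phosphatase subunit, and *Krt15*. The root mean square difference of their centred log2 CPM from that of *Aqp5* was 0.18, 0.185 and 0.186, where *Aqp5* itself varied by 0.827. The search was made for *Aqp5* after its values were seen. Control replicate 2 was the lowest library and control replicates 3 and 4 the highest controls for *Aqp5* and *Esr2* alike. This likeness follows from the choice of *Esr2* by its profile and is not a separate observation.

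**Figure D4:**
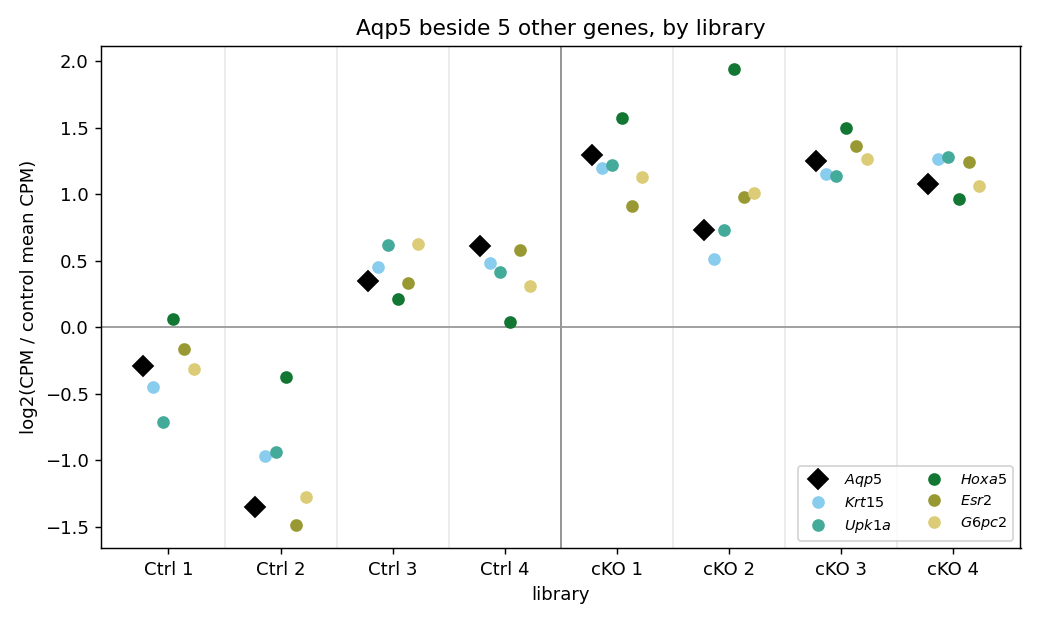
Log2 of CPM over the mean of the 4 control libraries for *Aqp5* (black diamonds), *Krt15*, *Upk1a*, *Hoxa5*, *Esr2* and *G6pc2* in each library, with 1 point per gene. Control replicate 2 is the lowest library for all 6 genes, and all 4 cKO libraries lie above every control, with *Hoxa5* the least scattered gene among the controls. *Esr2* and *G6pc2* are shown because their profiles are closest to that of *Aqp5*, so their likeness follows from that choice.

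*Aqp1* encodes the water channel of capillary endothelium and red blood cells. The gene (Entrez 11826, chr6:55336299-55348555, plus strand, 4 exons) had 267, 337, 224 and 205 CPM in control and 237, 221, 202 and 194 CPM in cKO replicates 1 to 4. The groups overlapped, and control replicate 2 was the highest library. The means were 258 ± 58.5 and 213 ± 19.6 CPM (SD, n = 4), a log2 fold change of -0.28 (SE 0.14, adjusted p = 0.289) and p = 0.2 in the exact permutation test (two-sided). The log2 fold change was -0.12 without control replicate 2, -0.41 without cKO replicates 1, 2 and 3, and -0.46 with the adipocyte score as a covariate. Blood endothelium markers summed to 856 to 1059 CPM in control and 872 to 1127 CPM in cKO uteri, and of the 9 edgeR called 0 (4 with an unadjusted p under 0.05, beside 21.2% of all genes), as did DESeq2 and limma-voom. Of these markers 8 had a positive log2 fold change, and edgeR called 4 higher without cKO replicate 4 (10.7% of all genes) and 1 without control replicate 2 (5.72%). Red blood cell markers summed to 31.5 to 48.9 CPM in control and 21.6 to 130 CPM in cKO uteri, where cKO replicate 1 had the 130 CPM and was also the highest cKO library for *Aqp1* (237 CPM). The part of either cell type in the level of *Aqp1* was not tested.

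*Aqp4* encodes the water channel of astrocyte end-feet, which is also found in skeletal muscle and stomach. The gene (Entrez 11829, chr18:15389394-15410982, minus strand, 5 exons) had 0.694, 0.464, 0.642 and 0.686 CPM in control and 0.66, 0.535, 1.2 and 0.911 CPM in cKO replicates 1 to 4, at 12 to 39 counts. The groups overlapped, with a log2 fold change of 0.41 (SE 0.30, adjusted p = 0.461). It was 0.16 without cKO replicate 3, the highest library, 0.54 without cKO replicates 1, 2 and 3, and 0.70 with the adipocyte score as a covariate. Skeletal muscle markers summed to 57 to 93.6 CPM in control and 56.7 to 79.4 CPM in cKO uteri, and 2 of the 6 tested, the fast-fibre genes *Tnnt3* (log2 fold change 0.80) and *Actn3* (0.66), were called higher, where 2.62% of all genes were. The count was 0 when any of control replicates 1 and 3 and cKO replicates 1 and 2 was left out, 0 also with the adipocyte score as a covariate (*Tnnt3* 0.39, *Actn3* 0.45) and without cKO replicates 1, 2 and 3, 1 without control replicate 4 and with limma-voom (3.89% and 4.98% of all genes), and 3 with DESeq2, without control replicate 2 and without cKO replicate 3 (9.04%, 5.72% and 3.17% of all genes). With all libraries, 5 of the 6 markers had a positive log2 fold change, that of *Tnni2* being 0.24 (adjusted p = 0.35 in edgeR). The negative one was *Acta1*, which made up most of the marker sum. Its mean was 49.4 CPM in controls against 45.2 CPM with the deletion (log2 fold change -0.13, adjusted p = 0.762 in edgeR). The part of skeletal muscle in the level of *Aqp4* was not tested. *Aqp2*, the vasopressin-regulated channel of the kidney collecting duct (Entrez 11827, chr15:99579056-99584545), had 1 to 8 counts per library, with means of 0.147 ± 0.11 and 0.103 ± 0.0613 CPM (SD, n = 4). *Aqp8* (Entrez 11833, chr7:123462294-123468003) had 0 to 3 counts per library. Both lay near the limit of 3 counts, and neither showed a difference (exact permutation p = 0.6 for *Aqp2* and 0.686 for *Aqp8*, two-sided). Fitted without the filter, their log2 fold changes were -0.45 (SE 0.66) and -0.18 (SE 0.97), so only large differences could be seen.

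*Aqp7* encodes the aquaglyceroporin through which fat cells release glycerol. The gene (Entrez 11832, chr4:41033074-41048237, minus strand, 8 exons) had 4, 8, 6 and 2 counts in control replicates 1 to 4, which is 0.126, 0.309, 0.214 and 0.0549 CPM. The cKO replicates 1 to 4 had 25, 65, 33 and 3 counts, which is 0.971, 2.18, 1.02 and 0.105 CPM. The high values were those of cKO replicates 1, 2 and 3, and cKO replicate 4 lay among the controls.

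Control uteri averaged 0.176 ± 0.11 CPM of *Aqp7*, and cKO uteri averaged 1.07 ± 0.85 CPM (SD, n = 4 each), a ratio of 6.06. In edgeR's test this was a log2 fold change of 2.65 with an SE of 0.75 and an adjusted p of 0.0704, and the exact permutation test gave p = 0.114 (two-sided). DESeq2 gave an adjusted p of 0.00556 for the same gene. Without cKO replicate 4, the log2 fold change was 3.03 with an adjusted p of 0.00273, which passes both thresholds. Without cKO replicates 1, 2 and 3, *Aqp7* lay under the filter and was not tested.

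The same 3 libraries carried the adipocyte markers. *Fabp4*, a fatty acid carrier of fat cells, had 39, 107, 45.3 and 1.61 CPM in cKO replicates 1 to 4 and at most 1.43 CPM in controls. Of the 10 markers, 9 were higher in each of cKO replicates 1, 2 and 3 than in every other library, and 1 of the 8 that were tested, *Adrb3*, the adrenergic receptor of fat cells, was called higher by edgeR (2.62% of all genes). DESeq2 called 7 (9.04% of all genes), as did edgeR without cKO replicate 4 (10.7%). With the mean log2 level of the markers as a covariate, the log2 fold change of *Aqp7* was -0.73 (SE 0.71, adjusted p = 0.848). In that fit the covariate and the genotype are largely confounded. The genes closest in profile to *Aqp7*, sought after its values were seen, were *Sncg*, *Hp* and the fatty acid transporter *Cd36*, at root mean square differences of 0.397, 0.436 and 0.457, where *Aqp7* itself varied by 1.31. How much of the *Aqp7* signal came from fat cells was not tested further.

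**Figure D5:**
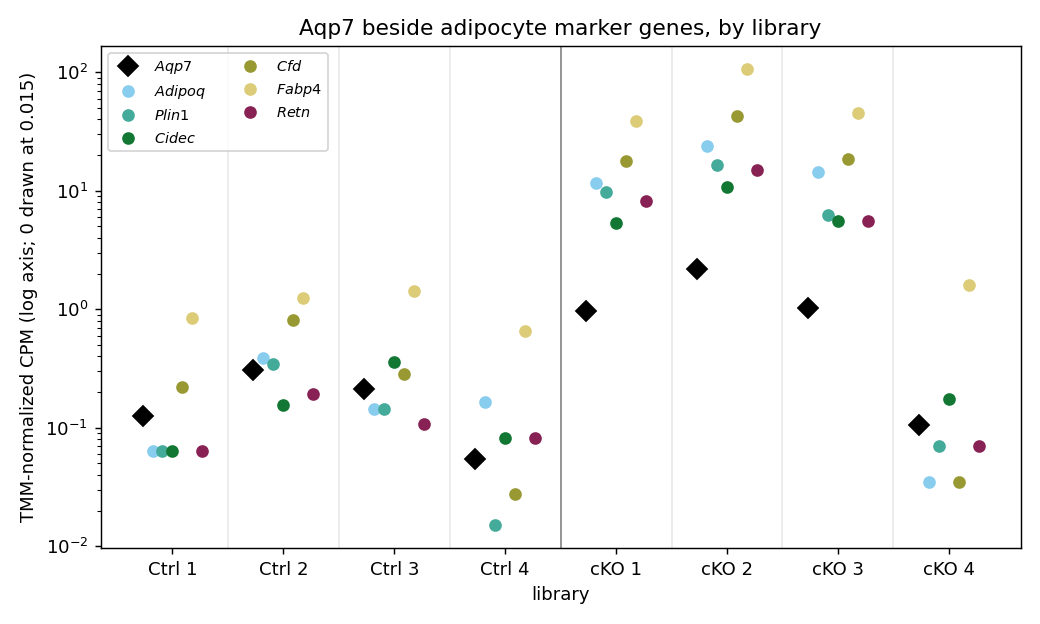
TMM-normalized CPM (log axis) of *Aqp7* (black diamonds) and of the adipocyte markers *Adipoq*, *Plin1*, *Cidec*, *Cfd*, *Fabp4* and *Retn* in each of the 8 libraries, with a value of 0 drawn at the bottom. *Aqp7* and the markers are high in cKO replicates 1, 2 and 3 and low in cKO replicate 4 and in the 4 controls.

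*Aqp3* encodes the aquaglyceroporin of basolateral membranes in kidney and skin epithelium, and *Aqp9* that of liver cells and some white blood cells. *Aqp3* (Entrez 11828, chr4:41092724-41098183, minus strand) lies 44.5 kb from *Aqp7* and had 0.536, 0.348, 0.499 and 0.714 CPM in control and 0.854, 0.535, 0.524 and 0.525 CPM in cKO replicates 1 to 4. The groups overlapped, and cKO replicate 1 was the highest library. Its log2 fold change was 0.18 (SE 0.31, adjusted p = 0.773), and -0.012 without cKO replicate 1. *Aqp9* (Entrez 64008, chr9:71110659-71167849, minus strand) had 0.757, 0.503, 0.749 and 0.549 CPM in control and 0.738, 1.41, 0.832 and 0.63 CPM in cKO replicates 1 to 4. The highest library was cKO replicate 2, which also had the highest adipocyte markers, and the log2 fold change was 0.50 (SE 0.30, adjusted p = 0.37), and 0.20 without that library. It turned to -0.078 with the adipocyte score as a covariate and to -0.014 without cKO replicates 1, 2 and 3. Neutrophil markers summed to 3.76 to 10.4 CPM in control and 6.36 to 10.9 CPM in cKO uteri, and all 6 that were tested had a positive log2 fold change (median 0.56). edgeR called 0 of them, with 3 at an unadjusted p under 0.05 (21.2% of all genes), and DESeq2 and limma-voom also called 0. *Mpo* (log2 fold change 1.29, adjusted p = 0.119, 3 to 14 counts) and *Cxcr2* (0.76, adjusted p = 0.201) were above every control in every cKO library. The genotypes did not overlap for 12.3% of all genes tested. The other tested markers overlapped, at log2 fold changes of 0.37 (*S100a8*), 0.087 (*S100a9*), 1.10 (*Ly6g*) and 0.23 (*Csf3r*). The part of neutrophils in the level of *Aqp9* was not tested.

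*Aqp11* (Entrez 66333, chr7:97726379-97738247, minus strand, 3 exons), whose protein lies in the membrane of the endoplasmic reticulum, varied little. It had 11.4, 15.4, 14.6 and 11.5 CPM in control and 12.6, 11.1, 11.0 and 13.2 CPM in cKO replicates 1 to 4, from 325 to 420 counts. The groups overlapped, with means of 13.2 ± 2.1 and 12.0 ± 1.09 CPM (SD, n = 4) and a log2 fold change of -0.14 (SE 0.12, adjusted p = 0.524), and of -0.061 without control replicate 2. Of the other genes of the family, *Aqp6* had 0 to 4 counts and *Aqp12* 0 to 2 counts per library. *Mip*, the lens channel, had means of 0.531 and 0.425 CPM and an adjusted p of 0.648.

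Channels and pumps that move ions set the gradients that water follows through aquaporins. Of 25 genes of ion and fluid transport, most of them channels, exchangers and pumps and some of them their regulators, 23 were tested, and 3 rose and 2 fell in cKO uteri, which is 21.7% of those tested beside 5.34% of all genes. The list was chosen with earlier results of these data known, so these shares are not read as an enrichment. The median log2 fold change of the 23 was -0.06, with 9 positive and 14 negative values. The count was 3 without control replicate 1 (2.38% of all genes), where *Slc26a4* and *Sgk1* lost their calls, and 0 with the adipocyte score as a covariate (0.732%). A fit without cKO replicates 1, 2 and 3 has 1 cKO library left. The log2 fold changes of the called genes in that fit and with the covariate were 1.90 and 1.96 for *Slc26a4*, 0.98 and 0.96 for *Kcnn4*, 0.44 and 0.44 for *Sgk1*, -0.77 and -0.80 for *Scnn1a* and -0.39 and -0.41 for *Ano1*, near the values with all libraries and with larger SE. *Slc26a4*, which encodes the anion exchanger pendrin, rose from 1.16 to 4.2 CPM (log2 fold change 1.83, SE 0.37, adjusted p = 0.0182). *Kcnn4*, a calcium-activated potassium channel, rose by 0.89 (SE 0.18, adjusted p = 0.014), and the kinase gene *Sgk1*, whose product raises sodium channel activity, rose by 0.40 (SE 0.10, adjusted p = 0.0397). The call of *Sgk1* was lost in 7 of the 8 fits that each left out a library, all but the fit without cKO replicate 1 (adjusted p 0.0211 to 0.129), and that of *Slc26a4* without control replicate 1 or cKO replicate 1 (at most 0.0564). *Scnn1a*, the alpha subunit of the epithelial sodium channel, fell from 11.2 to 7.09 CPM (log2 fold change -0.66, SE 0.12, adjusted p = 0.00647). *Ano1*, a calcium-activated chloride channel, fell from 256 to 194 CPM (log2 fold change -0.40, SE 0.06, adjusted p = 0.00118).

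The genes of glycerol and triglyceride handling, which use or make the glycerol that aquaglyceroporins pass, gave 0 of 10 calls in edgeR's test (median log2 fold change 0.13), with 4 at an unadjusted p under 0.05 (21.2% of all genes), while DESeq2 called 2 (9.04% of all genes) and limma-voom 1 (4.98%), all higher. Without cKO replicate 4, edgeR called 3 of them (10.7% of all genes), and without control replicate 2 it called 1 (5.72%). Hormone receptors, anchors and osmotic regulators of aquaporins gave 0 of 16 calls in edgeR (median 0.00464), with 3 at an unadjusted p under 0.05 (21.2% of all genes), and 0 in DESeq2 and limma-voom. Without control replicate 2 edgeR called 1 of these higher, and without cKO replicate 4 it called 1 lower. Around the 9 members, 25 of 28 neighbouring protein-coding genes were tested and 1 was called, where 5.34% of all genes were, with a median log2 fold change of -0.05. This was *Inmt*, a methyltransferase gene 161 kb before *Aqp1*, which fell from 1.9 ± 0.748 to 0.843 ± 0.289 CPM (SD, n = 4; log2 fold change -1.17, SE 0.31, adjusted p = 0.0496). The call was lost with limma-voom and in 6 of the 8 fits that each left out a library, all but those without control replicate 4 or cKO replicate 1, with adjusted p from 0.0375 to 0.133 over the 8 fits, and with the adipocyte covariate (adjusted p = 0.335). It was lost too with library totals alone, with a filter of 1 CPM in 4 libraries and with robust = FALSE (adjusted p = 0.0517, 0.0525 and 0.053 in edgeR). The log2 fold change of *Inmt* was -1.12 with limma-voom and -1.37 with the covariate.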

How the data were processed

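Poly(A) RNA of whole uteri, 4 control and 4 cKO, was sequenced. The authors used Trimmomatic for trimming, HISAT2 for alignment to GRCm38 and featureCounts for counting, and the deposited counts are raw, per Entrez gene. The library kit keeps strand. Tool versions, the annotation release, the strand setting and the treatment of multiply mapped reads are not given in the sources used here. Exons of the members shared 0 bases with other annotated genes. Gene symbols came from the deposited comparison table, whose fold changes and p-values, like the normalized values, were not used.

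Genes above 0.2 CPM in 4 or more libraries were tested with edgeR 4.0.16 (TMM, quasi-likelihood, robust = TRUE) in R 4.3.3, with Benjamini-Hochberg adjustment over all 16658 genes. The standard error is the log2 fold change divided by the square root of F. limma 3.58.1, DESeq2 1.42.0, other scalings and filters, a replicate block, left-out libraries and an adipocyte covariate were the alternatives. Exact permutation tests used log2(CPM + 0.1). Totals and the limit of 3 counts cover counting error only. The labels give no batch.

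Members and lists were chosen with earlier results of these data known. Named genes are the 9 members, called genes of fixed lists other than cell type markers, called neighbours (the 2 protein-coding genes on either side) and *Ezh2*. Marker lists of mesothelium, macrophages, Schwann cells, and ovary and oviduct were also counted and are not described above. In these, edgeR called *Sox10* of the Schwann cell list alone (log2 fold change 0.92, adjusted p = 0.0407), where 2.62% of all genes were called higher. That call was lost in most fits that left out 1 library. The rule also named the 3 genes closest in profile to each called member, of which there was none. Marker genes, the genes close to *Aqp5* and *Aqp7* in profile, *Upk1a* and *Krt15* were named after their values were seen. Lengths came from GENCODE annotation of GRCm38, and gene positions and upstream sequences from RefSeq.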

Additional observations from a re-analysis of the deposited data

Results flagged for a closer look

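*Aqp3* in the cKO libraries had 1 sample far from the others. cKO replicate 1 stood at 0.854 CPM, the nearest other library at 0.535 CPM, and the gap was 0.964 of the range of the group, above the critical value of Dixon's test for 4 samples. Of 18 groups examined (9 members in 2 genotypes), 1 was marked, and chance marks about 1 in 20.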

How the results depend on the processing

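The number of members with an adjusted p under 0.05, 0 in edgeR's test, was 1 with DESeq2 (*Aqp7*), 1 with limma-voom (*Aqp5*) and 2 with the replicate number as a block (*Aqp5*, adjusted p = 0.036, and *Aqp7*, adjusted p = 0.00128). The same numbers, 1, 1 and 2, also had a fold change over 2. Leaving out each library in turn gave 0 to 1 members by either rule: *Aqp5* by the adjusted p alone without control replicate 2, and *Aqp7* by both without cKO replicate 4. With the group mean of each gene taken off its log2 CPM, same-numbered control and cKO libraries correlated at 0.0236, 0.113, -0.00354 and 0.194 for replicates 1 to 4. The highest correlations with a cKO library of another number were 0.112, 0.166, 0.0896 and 0.12, so the same number gave the higher value for replicate 4 alone. The numbers were not taken to pair the samples, and the block raised the calls over all genes from 889 to 1240. The log2 fold change lay between 0.833 and 1.37 for *Aqp5* and between 2.05 and 3.05 for *Aqp7* when single libraries were left out, and between -0.012 and 0.375 for *Aqp3*, which turned negative without cKO replicate 1.

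Without cKO replicates 1, 2 and 3 together, *Aqp3* (-0.016) and *Aqp9* (-0.014) turned negative and *Aqp11* (0.0043) positive, *Aqp7* was not tested, 0 ion transport genes (at log2 fold changes near those with all libraries and larger SE) and 35 genes in all were called. With the adipocyte score as a covariate, *Aqp7* (-0.726) and *Aqp9* (-0.0784) turned negative, and 0 ion transport genes (again at similar log2 fold changes, such as 1.96 for *Slc26a4* and -0.80 for *Scnn1a*) and 122 genes in all were called. The score is largely confounded with the genotype, so the covariate fit cannot separate them, and the cause was not tested. The 5 calls among ion transport genes, whose alternatives were chosen after seeing the data, were 3 to 5 when single libraries were left out (2.38% to 10.7% of all genes) and 6 with the replicate block (7.44%). Over all alternatives, 116 log2 fold changes of members kept their direction and side of the threshold, 6 came to pass it and 6 changed sign. A filter of 1 CPM left 3 members tested. *Aqp2* and *Aqp8*, at 8 counts or fewer, had standard errors of 0.662 and 0.968 without the filter, so at this depth small differences were not detectable.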
